A study of Macaca radiata with 6 samples.

Results

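The genes described here are CDH5, ERG, MMRN2, KLF2, EPAS1, ANGPT1, NRP1 and THBS1, which mark endothelial cells or act in angiogenesis, in the corpus luteum (CL) of the bonnet monkey after withdrawal of LH. They were taken as every probe set whose single gene symbol on the platform is 1 of these 8 names, which gave 22 of the 52707 probe sets tested, and the 8 genes are among 14132 with a symbol of their own. The 8 genes were chosen with their CET and vehicle values already known, so their differences between the groups are given as a description, with a standard error and no test.

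The CL is one of the most densely vascularised tissues of the adult, and nearly every steroidogenic cell lies beside a capillary. LH acts on the luteal cells, which secrete VEGF, and VEGF together with the angiopoietins keeps the capillaries in place. Endothelial cells hold together through VE-cadherin, carry receptors for these ligands, and express a set of transcription factors that respond to flow, to lineage signals and to low oxygen. Thrombospondin opposes angiogenesis.

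Adult female bonnet monkeys received a subcutaneous injection of Cetrorelix (CET), a GnRH receptor antagonist that stops pituitary LH secretion, with 150 μg given per kg BW, or the vehicle (VEH), which was 5.25% glucose. Both were given on day 7 of the luteal phase, both groups lost the CL to surgery 24 h later, and each of 3 CET and 3 VEH samples of whole CL tissue was read on 1 Affymetrix rhesus macaque array. The series states that the CL of both groups came from the same monkeys, but the labels number the samples 1 to 6 and do not say which belong together. Bonnet monkey RNA was thus read with probes for a related species, and a change in a whole CL cannot tell fewer cells of a type from less RNA per cell.

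The arrays were not alike in RNA quality or in their likeness to each other. The 3' signal of the GAPDH control was 142.9 times its 5' signal in CET replicate 2 and 1.79 to 7.31 times in the other 5 arrays. For ACTB the ratio was 37.2 in CET replicate 2, 22.4 in VEH replicate 4 and 2.12 to 9.42 in the other 4, and for EF1A it was 42.2, 9.56 and 0.846 to 4.68. Every CET array was more like the VEH arrays than like the other CET arrays, with a mean Spearman rho of 0.756, 0.727 and 0.733 to VEH for CET replicates 1, 2 and 3 against 0.664, 0.710 and 0.709 to CET. Of 16 endothelial markers listed, 14 had a probe set, and 12 of the 14 were bright enough to be read, all but KDR and FLT1. Among the 12, MMRN2 was close to the limit given next, with a mean of 7.48, and its VEH mean of 6.93 was under it. The steroidogenic markers with a probe set were all bright enough, 6 of 6. A probe set was taken as dim when its mean log2 signal was under the 40th percentile, 7.43, and a gene is called measured when its brightest probe set is not dim. All values below are quantile-normalized log2 signals unless the deposited linear signal is named.

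Over the 22 probe sets, the mean was lower after CET for 14 and higher for 8, with a median difference of -0.45. The share with a lower mean was 63.6% here and 49.9% over all probe sets, from which nothing is read because the genes were chosen on this contrast. A difference of 1.5-fold or more was present on the lower side for 9 of the 22 (23.8% of all probe sets) and on the higher side for 8 of the 22 (23.9%). Of the 22, 19 were above the dim limit, and the 3 below it belonged to ANGPT1, NRP1 and THBS1. At the brightest probe set of each gene, 5 of the 8 genes had a lower mean (54.7% of all genes) and none lay with every CET array below every VEH array (6.45% of all genes). The probe sets of 1 gene are read from the same RNA and are not replicates. The groups did not overlap at 2 probe sets on the higher side, 1 of KLF2 and 1 of THBS1 (5.9% of all probe sets), and at 1 on the lower side, a dim one of NRP1 (5.25% of all). Across all 52707 probe sets, 0% passed an adjusted p of 0.05 in limma, where the smallest was 0.83, and 5.39% had an unadjusted p under 0.05. By the methods' t-test 2729 probe sets lay under that unadjusted limit and 0 passed after adjustment.

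**Figure D1:**
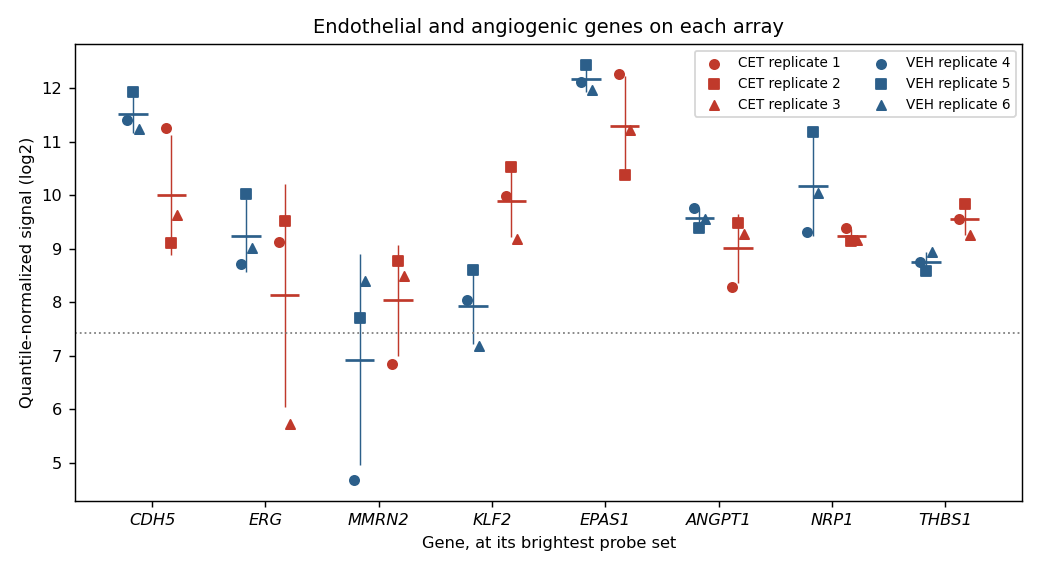
Quantile-normalized log2 signal (vertical axis) of the 8 genes at their brightest probe sets (horizontal axis) on each of 3 CET and 3 VEH arrays, with points for single arrays, horizontal marks for group means, bars for 1 SD and a dotted line at the limit for dim probe sets, 7.43. The CET points of KLF2 and THBS1 lie above all VEH points, while those of the other 6 genes overlap with the VEH points.

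CDH5 encodes VE-cadherin, the adhesion protein of endothelial junctions, and had the largest negative difference among the brightest probe sets of the 8 genes. Its log2 signal was 11.25, 9.11 and 9.63 on CET replicates 1, 2 and 3, against 11.40, 11.93 and 11.24 on VEH replicates 4, 5 and 6. CET replicates 2 and 3 thus lay well below every VEH array, while CET replicate 1 lay among them, just above VEH replicate 6. In the deposited signals, before quantile normalization, CET replicate 1 had 2398 and VEH replicate 6 had 2458. There the CET arrays were all below the VEH arrays, so the overlap at this probe set depends on the normalization. The CET mean was 9.998 ± 1.12 (SD, n = 3) and the VEH mean 11.52 ± 0.36 (SD, n = 3), a log2 difference of -1.52 (standard error 0.55), or a mean signal 2.88 times as high after vehicle. The other probe set of CDH5 had -2.02 (standard error 0.92), with 8.77, 5.60 and 6.74 on the CET arrays and 8.18, 10.68 and 8.31 on the VEH arrays. The same 2 CET arrays were low there, and CET replicate 1 again lay within the VEH range, also in the deposited signals. Leaving out CET replicate 2 gave -1.08 at the brighter probe set, and leaving out CET replicate 1 gave -2.15. With the mean log2 ratio of 3' to 5' control signals as a covariate, which was highest on CET replicate 2, it was -1.28.

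ERG and MMRN2 are also endothelial by lineage. ERG encodes an ETS transcription factor of endothelial cells that activates CDH5, and its log2 signal was 9.13, 9.52 and 5.73 on CET replicates 1, 2 and 3, against 8.71, 10.02 and 9.01 on VEH replicates 4, 5 and 6. A single array, CET replicate 3, was far below the rest, and the other 2 CET arrays lay inside the VEH range. The log2 difference of -1.12 (standard error 0.90) became 0.079 without CET replicate 3 and -1.81 without CET replicate 2. CET replicate 3 was also low for CDH5, whereas CET replicate 2 was low for CDH5 and not for ERG. The other probe sets of ERG had -0.44 (standard error 0.54) and 0.59 (standard error 1.03), and at the first of them CET replicate 3 had 8.70, inside the VEH range of 8.45 to 8.96. The mean over the 3 probe sets was -0.32.

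MMRN2, an extracellular matrix glycoprotein of endothelial cells that binds VEGF, had 6.84, 8.78 and 8.48 on CET replicates 1, 2 and 3, and 4.68, 7.71 and 8.39 on VEH replicates 4, 5 and 6. VEH replicate 4 was far below the other 5 arrays. The log2 difference at its 1 probe set was 1.10 (standard error 0.99), and -0.020 without VEH replicate 4. It was 1.84 without VEH replicate 6 and 1.70 without CET replicate 1. Its VEH mean, 6.93 ± 1.98 (SD, n = 3), was itself under the dim limit.

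KLF2 is a transcription factor that endothelial cells express under flow, and it keeps them quiescent. At its brightest probe set the log2 signal was 9.98, 10.52 and 9.18 on CET replicates 1, 2 and 3, and 8.04, 8.60 and 7.18 on VEH replicates 4, 5 and 6. All 3 CET arrays lay above all 3 VEH arrays, CET replicate 1 included. The deposited signals were 632 to 1507 after CET and 142 to 332 after vehicle. The mean was 9.89 ± 0.67 (SD, n = 3) against 7.94 ± 0.71 (SD, n = 3), a log2 difference of 1.96 (standard error 0.58), or 3.88 times the vehicle signal. Leaving out single replicates gave 1.58 to 2.31. The other probe set of KLF2, also above the dim limit, had the opposite sign at -1.31 (standard error 0.67), with 8.19, 6.82 and 8.78 after CET and 10.01, 9.26 and 8.47 after vehicle. The mean over both was 0.32, so the direction of KLF2 rests on which probe set is read.

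**Figure D2:**
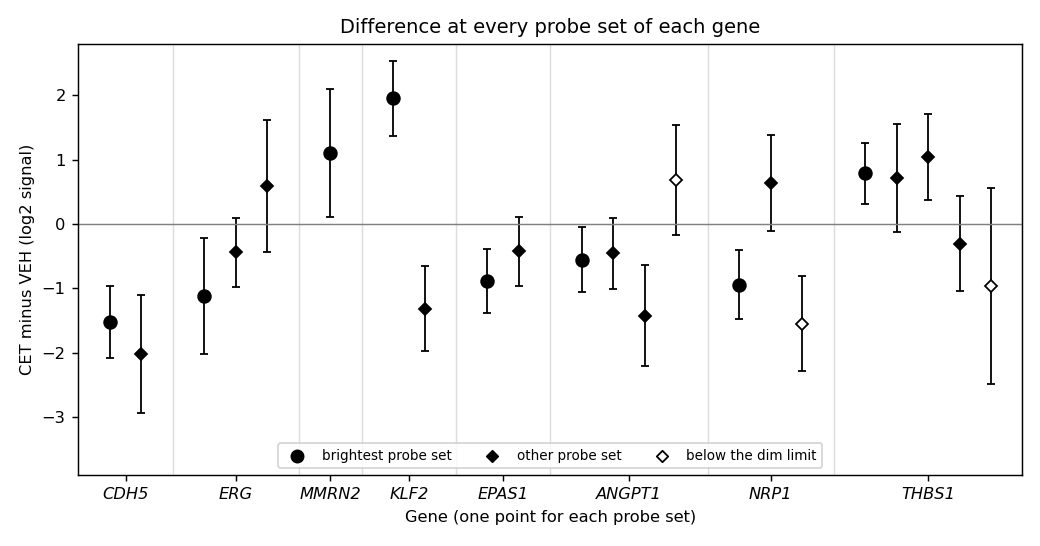
Log2 difference, CET minus VEH (vertical axis), at each of the 22 probe sets, grouped by gene along the horizontal axis, with bars of 1 standard error and open symbols for the 3 probe sets below the dim limit. Both probe sets of CDH5 and of EPAS1 lie below 0, and the 2 of KLF2 lie on opposite sides of it.

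EPAS1 encodes HIF-2 alpha, the oxygen-regulated transcription factor that is abundant in endothelium. Its log2 signal was 12.25, 10.38 and 11.22 on CET replicates 1, 2 and 3, and 12.12, 12.43 and 11.96 on VEH replicates 4, 5 and 6. As for CDH5, CET replicates 2 and 3 were below every VEH array and CET replicate 1 was within their range. The log2 difference was -0.89 (standard error 0.49), a mean signal 1.85 times as high after vehicle. Leaving out CET replicate 2 gave -0.44, and leaving out CET replicate 1 gave -1.37. The other probe set had -0.43 (standard error 0.53), where CET replicate 3, at 10.63, was the highest of all 6 arrays. The 2 probe sets of EPAS1 shared the sign of the difference but not the order of the CET arrays.

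ANGPT1 is the ligand of the endothelial receptor TIE2 and is made by mural and luteal cells. At its brightest probe set it had 8.28, 9.48 and 9.28 on CET replicates 1, 2 and 3, and 9.76, 9.39 and 9.55 on VEH replicates 4, 5 and 6. The low array here was CET replicate 1, the one that lay with the VEH arrays for CDH5 and EPAS1. The log2 difference was -0.56 (standard error 0.50), and -0.19 without CET replicate 1. Of its 3 other probe sets, 2 also had a lower mean after CET, at -0.45 (standard error 0.55) and -1.42 (standard error 0.78). The fourth, below the dim limit, had 0.69 (standard error 0.85). At the probe set with -1.42, CET replicate 1 was 9.52 and CET replicates 2 and 3 were 7.11 and 6.42, so the probe sets of ANGPT1 placed different CET arrays lowest.

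NRP1 is the co-receptor that presents VEGF to its receptors and also binds class 3 semaphorins. Its log2 signal was 9.38, 9.15 and 9.16 on CET replicates 1, 2 and 3, and 9.31, 11.18 and 10.04 on VEH replicates 4, 5 and 6. The CET arrays were close to each other, with an SD of 0.13, and VEH replicate 4 lay among them. The log2 difference was -0.94 (standard error 0.53), and it ranged from -0.44 without VEH replicate 5 to -1.38 without VEH replicate 4. Its second probe set had 0.64 (standard error 0.75). The dim probe set of NRP1 had -1.55 (standard error 0.74), with 6.07, 7.63 and 6.01 after CET and 8.21, 8.42 and 7.72 after vehicle, so that the groups did not overlap.

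THBS1 encodes thrombospondin 1, a secreted inhibitor of angiogenesis that acts through CD36 and CD47. At the brightest probe set the log2 signal was 9.56, 9.84 and 9.25 on CET replicates 1, 2 and 3, and 8.76, 8.58 and 8.94 on VEH replicates 4, 5 and 6. Every CET array lay above every VEH array, and the spread within each group was small. The CET mean was 9.55 ± 0.30 (SD, n = 3) and the VEH mean 8.76 ± 0.18 (SD, n = 3), a log2 difference of 0.79 (standard error 0.47), or 1.73 times the vehicle signal. It was 0.64 to 0.94 when single replicates were left out. Of the 4 other probe sets of THBS1, 2 had a higher mean after CET, at 0.72 (standard error 0.84) and 1.04 (standard error 0.67), and 2 a lower mean, at -0.31 (standard error 0.74) and -0.96 (standard error 1.53), the last below the dim limit. Over the 5 probe sets the mean difference was 0.26.

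Read array by array, the 8 genes did not shift together. Against the VEH mean of each gene, CET replicate 3 had 5 genes below the lowest VEH array and 3 above the highest, CET replicate 2 had 3 below and 3 above, and CET replicate 1 had 1 below and 2 above. KLF2 and THBS1 were the genes above the VEH range on CET replicate 1. The median over the 8 genes was -0.10, 0.090 and -0.62 on CET replicates 1, 2 and 3, and -0.089, 0.53 and -0.17 on VEH replicates 4, 5 and 6. The SD over replicates was larger after CET than after vehicle at 16 of the 22 probe sets, and at 62.1% of all probe sets. The median SD of the 22 was 0.93 after CET and 0.71 after vehicle, beside 0.84 and 0.63 over all probe sets.

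**Figure D3:**
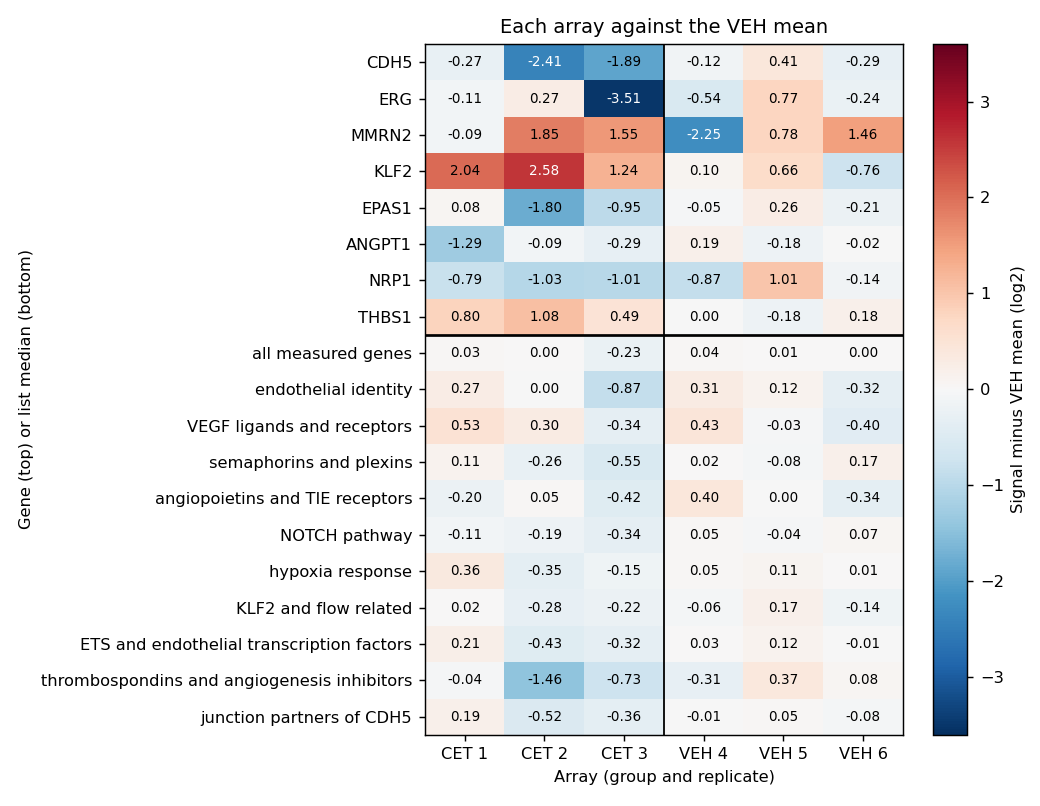
Log2 signal of each array (columns) minus the VEH mean, for the 8 genes at their brightest probe sets (upper rows) and as medians over the measured genes of each list (lower rows), with the scale in colour and the value in each cell. CDH5 was low on CET 2 and CET 3 at -2.41 and -1.89, ERG on CET 3 at -3.51, and the endothelial identity list on CET 3 at -0.87. All measured genes had a median of -0.23 on CET 3.

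The genes whose profile over the 6 arrays came nearest to that of CDH5 were sought among 10921 measured genes. Likeness was the root mean square difference between log2 profiles, each centred on its own mean, and its median over these genes was 1.11. STAR, which carries cholesterol into mitochondria in steroidogenic cells, came first at 0.146, followed by TMEM45A, which encodes a transmembrane protein, at 0.161, and C1H1orf52 at 0.169. STAR had 14.85, 12.75 and 13.65 on CET replicates 1, 2 and 3, and 15.23, 15.58 and 14.91 on VEH replicates 4, 5 and 6. Its difference was -1.49 (standard error 0.53), beside -1.52 for CDH5, -1.27 (standard error 0.52) for TMEM45A and -1.48 (standard error 0.58) for C1H1orf52. That these differences are alike follows from the choice of genes by their profile on the same 6 arrays, and is no separate result. STAR is a gene of steroidogenic cells, while TMEM45A and C1H1orf52, which came nearly as close, are not among the steroidogenic markers used here. No endothelial marker was among the 3, but ERG and MMRN2 were left out and few others were compared, so nothing is read from this. The summed linear signal of the steroidogenic markers, of which STAR had the strongest, was also low on CET replicates 2 and 3. It was 98118, 36946 and 48249 on CET replicates 1, 2 and 3 against 89660 to 121785 on the VEH arrays. Because STAR is part of the sum, the sum is no separate sign of likeness to CDH5. Whether the CDH5 difference has any relation to the steroidogenic signal was not tested. The summed endothelial markers were 16930 to 29550 after CET and 18691 to 25997 after vehicle, and the groups overlapped.

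**Figure D4:**
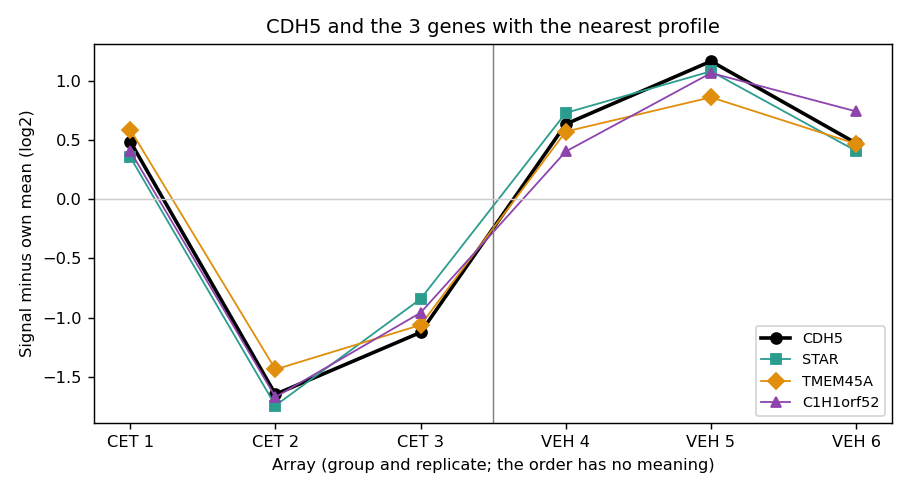
Log2 signal minus its own mean over 6 arrays (vertical axis) on each array (horizontal axis, whose order has no meaning) for CDH5, STAR, TMEM45A and C1H1orf52 at their brightest probe sets, with lines that only join the points of a gene. All 4 genes are lowest on CET replicate 2, at 9.11 for CDH5, and highest on VEH replicate 5, at 11.93.

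Genes of the same pathways that were not among the 8 were read from 10 lists of 120 genes in all, of which 95 had a probe set and 83 were measured. Of the 83, 58 had a lower mean after CET, or 69.9%, beside 57.7% of all 10929 measured genes. Their median difference was -0.25, beside -0.13 over all measured genes. In limma, 0 of the 83 reached an adjusted p of 0.05, as for 0% of all probe sets. At an unadjusted p under 0.05, 3 of the 83 were lower and 1 was higher, beside 3.19% and 2.1% of all measured genes. The groups did not overlap for 8 on the lower side and 3 on the higher, beside 7.02% and 4.71% of all measured genes. The 2 measured genes with the smallest p of each list are named below, a choice that favours genes whose groups do not overlap. These lists were written with earlier results of these data known, and VEGFA, ANGPT2 and HIF1A were not analysed here.

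The median of the endothelial identity list was lowest on 1 array, CET replicate 3, but not every gene of the list was lowest there. Of 15 measured genes, 12 had a lower mean after CET (57.7% of all measured genes), with a median of -0.39. Without CET replicate 3 there were 5 lower genes and the median was 0.086. Its median against the VEH mean was 0.27, -0.0018 and -0.87 on CET replicates 1, 2 and 3. The median of all measured genes was 0.032, 0.0026 and -0.23 on the same arrays, so it too was lowest on CET replicate 3. VWF, the clotting factor stored in endothelial granules, had 12.03, 12.90 and 7.93 on those arrays and 11.14 to 12.33 on the VEH arrays (difference -0.67, standard error 1.0003, adjusted p = 0.91 from limma), and 0.85 without CET replicate 3 or -1.64 without CET replicate 2. SOX17, an arterial transcription factor, had 9.95, 8.26 and 5.39 against 8.95 to 10.30 (difference -1.77, standard error 0.96, adjusted p = 0.83 from limma), and leaving out CET replicate 3 gave -0.53, leaving out CET replicate 1 -2.81. CLDN5, a tight junction protein, had 7.00 on CET replicate 3 and 8.52 to 9.99 on the 5 other arrays (difference -0.77, standard error 0.74, adjusted p = 0.87 from limma), and 0.041 without that array or -1.45 without CET replicate 1. PECAM1, an adhesion receptor of endothelial cells and platelets, had its highest value on CET replicate 2. It had 11.65, 12.88 and 11.06 on the CET arrays and 11.71 to 12.08 on the VEH arrays (difference -0.036, standard error 0.49, adjusted p = 0.99 from limma). EMCN was the 1 measured gene of the list with every CET array below every VEH array (7.02% of all measured genes). It had 10.94, 10.48 and 10.87 against 11.02 to 11.27 (difference -0.42, standard error 0.39, adjusted p = 0.87 from limma), and both of its other probe sets had the same sign.

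Of the receptors of the angiopoietin family, TEK had a higher and TIE1 a lower mean after CET, and a difference between these genes was not tested. TEK, which encodes TIE2, had 10.81, 12.66 and 13.20 on CET replicates 1, 2 and 3 and 11.68, 10.80 and 11.65 on VEH replicates 4, 5 and 6. It was high on the arrays where CDH5 was low, with a difference of 0.84 (standard error 0.59, adjusted p = 0.83 from limma). This was 0.23 with array medians subtracted and 1.55 without CET replicate 1. TIE1, the related orphan receptor, had a difference of -0.33 (standard error 0.49, adjusted p = 0.91 from limma), and 0.086 without CET replicate 3. ANGPTL2, an angiopoietin-like secreted protein, had 6.92 to 7.75 after CET and 8.20 to 9.13 after vehicle (difference -1.21, standard error 0.61, adjusted p = 0.83 from limma). Its groups did not overlap, but its other probe set had the opposite sign. Of 6 measured genes of this list, 4 had a lower mean (57.7% of all measured genes), and the median was -0.17.

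Among VEGF ligands and receptors, where NRP1 acts, only 3 of 9 genes with a probe set were measured. Of these 3, 2 had a lower mean after CET (57.7% of all measured genes). VEGFB, a ligand of FLT1, had 8.02 on CET replicate 3 and 10.03 to 11.18 on the 5 other arrays (difference -0.38, standard error 0.74, adjusted p = 0.93 from limma), and 0.64 without CET replicate 3. PGF, the placental growth factor, had a difference of 0.29 (standard error 0.57, adjusted p = 0.93 from limma) and PROK1, a growth factor for the endothelium of steroidogenic glands, -0.27 (standard error 0.49, adjusted p = 0.93 from limma). KDR and FLT1, the receptors of VEGF, and NRP2, the paralog of NRP1, were dim, so little can be said of them. Their differences were 0.057, -0.23 and 0.87, with standard errors of 1.10, 0.84 and 0.96, and that of NRP2 was 0.12 without CET replicate 1. For the semaphorin side of NRP1, 5 of 8 measured semaphorins and plexins had a lower mean (57.7% of all measured genes). The median of this list was -0.38. SEMA3D, a secreted semaphorin, had 9.96, 8.42 and 8.74 after CET and 10.06, 10.60 and 10.16 after vehicle (difference -1.23, standard error 0.52, adjusted p = 0.83 from limma). The groups did not overlap there, but 1 of its 2 other probe sets had the opposite sign and the mean over all of them was -0.18. PLXNA2, a semaphorin receptor, had 9.52, 9.50 and 9.16 after CET and 6.95, 9.03 and 9.49 after vehicle (difference 0.90, standard error 0.67, adjusted p = 0.84 from limma), and 0.14 without VEH replicate 4, the low array.

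**Figure D5:**
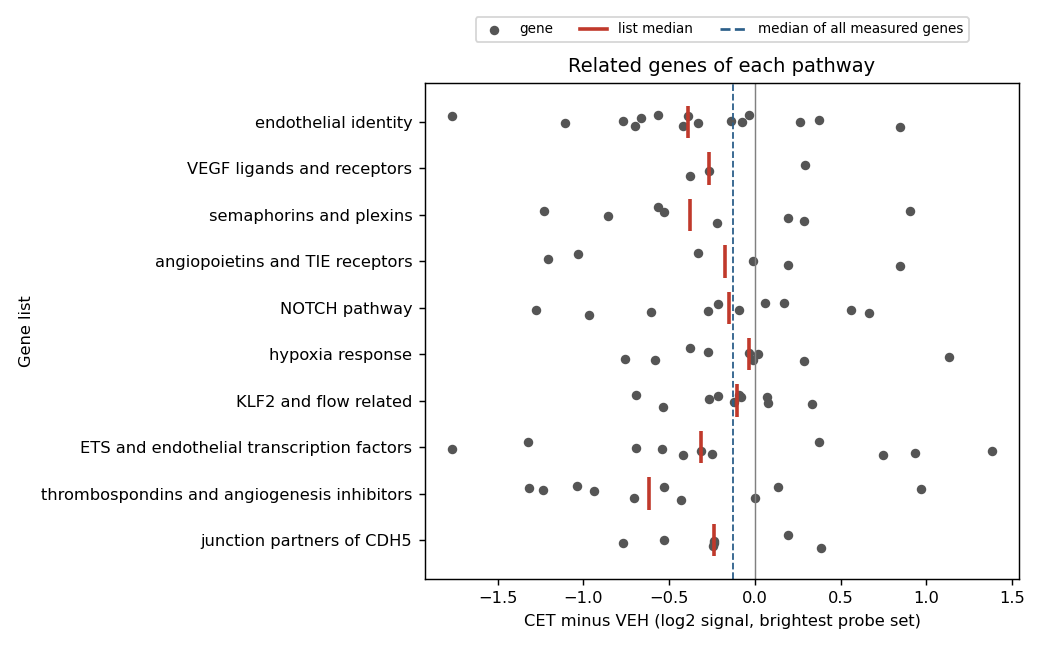
Log2 difference, CET minus VEH (horizontal axis), of each measured gene of 10 lists (vertical axis) at its brightest probe set, with grey points for genes, red marks for list medians and a dashed line for the median of all measured genes, -0.13. Every list holds genes on both sides of 0, and the list medians run from -0.62 to -0.032.

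In the NOTCH pathway, which sets tip and stalk cells during sprouting, 6 of 10 measured genes had a lower mean (57.7% of all measured genes). The median was -0.15. DLL4, the endothelial NOTCH ligand, had 9.998, 9.18 and 8.72 on the CET arrays and 10.29, 10.38 and 10.13 on the VEH arrays. Every CET array was below every VEH array, with a difference of -0.97 (standard error 0.48, adjusted p = 0.83 from limma). JAG2, another ligand, had -1.28 (standard error 0.71, adjusted p = 0.83 from limma). NOTCH4, the endothelial receptor, had -0.61 (standard error 0.55, adjusted p = 0.86 from limma), and its other probe set had the opposite sign.

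Around KLF2, 7 of 10 measured flow-related genes had a lower mean (57.7% of all measured genes) and 3 a higher one, and the median was -0.11. THBD, the anticoagulant receptor thrombomodulin that KLF2 activates, had a difference of -0.53 (standard error 0.49, adjusted p = 0.87 from limma) and KLF4, a related factor, of -0.69 (standard error 0.58, adjusted p = 0.85 from limma). NOS3, the endothelial nitric oxide synthase, had -0.083 (standard error 0.55, adjusted p = 0.98 from limma), and its 2 other probe sets had the opposite sign. At their brightest probe sets these 3 genes did not show the higher mean of the brightest KLF2 probe set. The mean over all probe sets of NOS3 was 0.42.

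Around EPAS1, 6 of 9 measured genes of the hypoxia response had a lower mean (57.7% of all measured genes), with a median of -0.032. ARNT, the dimer partner of HIF proteins, had 8.04, 8.04 and 8.59 on the CET arrays and 8.66 to 8.91 on the VEH arrays (difference -0.58, standard error 0.53, adjusted p = 0.86 from limma), but both of its other probe sets had the opposite sign. EGLN1, the oxygen sensor that marks HIF proteins for degradation, had 9.35 to 10.31 after CET and 10.39 to 10.71 after vehicle (difference -0.76, standard error 0.44, adjusted p = 0.83 from limma), and 3 of its 4 other probe sets had the same sign. HIF3A, a HIF family member that can act as an inhibitor, had a difference of 1.13 (standard error 0.56, adjusted p = 0.83 from limma), and 0.39 as the mean over its probe sets. Around ERG, 7 of 11 measured transcription factors had a lower mean (57.7% of all measured genes), with a median of -0.31. ETS1, an ETS factor of sprouting endothelium, had 9.17, 9.51 and 9.11 after CET and 7.998, 8.49 and 7.15 after vehicle, every CET array being higher (difference 1.38, standard error 0.57, adjusted p = 0.83 from limma). Both of its other probe sets had the opposite sign, and the mean over all was 0.068. GATA2, a zinc finger factor of endothelial and blood cells, had 9.59 to 10.09 against 8.76 to 9.07 (difference 0.94, standard error 0.46, adjusted p = 0.83 from limma), but 1 of its 2 other probe sets had the opposite sign and the mean over all was 0.35. FLI1, the ETS factor closest to ERG, had 0.38 (standard error 0.48, adjusted p = 0.90 from limma) at its brightest probe set and a mean of -0.56 over all of them.

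Thrombospondins and angiogenesis inhibitors had the lowest list median, -0.62, the opposite side from THBS1 at its brightest probe set. Of 10 measured genes, 7 had a lower mean after CET (57.7% of all measured genes). COL18A1, whose product releases endostatin, had 9.18, 8.48 and 8.10 after CET and 10.82, 9.24 and 9.65 after vehicle (difference -1.32, standard error 0.56, adjusted p = 0.83 from limma). ADAMTS1, a matrix protease that also inhibits angiogenesis, had -1.24 (standard error 0.51, adjusted p = 0.83 from limma). CD36 and CD47, the receptors of THBS1, had differences of -1.04 (standard error 0.77, adjusted p = 0.84 from limma) and -0.94 (standard error 0.52, adjusted p = 0.83 from limma). CD36 was -0.15 without VEH replicate 5, -1.72 without VEH replicate 4 and -0.38 after adjusting for the 3' to 5' ratio. CD47 had the opposite sign at 2 of its 4 other probe sets, with a mean of -0.18 over all. THBS2, the paralog of THBS1, had 0.00065, its sign turning with several settings (standard error 0.60, adjusted p = 0.9999 from limma). The list median against the VEH mean was -0.040, -1.46 and -0.73 on CET replicates 1, 2 and 3. Among junction partners of CDH5, 5 of 7 measured genes had a lower mean (57.7% of all measured genes), with a median of -0.24. CTNNA1, the catenin that ties cadherins to actin, had 11.25, 10.92 and 11.18 on the CET arrays and 11.63, 11.69 and 11.61 on the VEH arrays. Its groups did not overlap, both of its other probe sets had the same sign, and its difference was -0.53 (standard error 0.37, adjusted p = 0.83 from limma).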

How the data were processed

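The authors deposited 1 MAS5 intensity per probe set and array on a linear scale (Affymetrix microarray suite 5.0, per the labels), and each array had a trimmed mean of 500 without the highest and lowest 2% of signals. Signals under 1 were set to 1, log2 values were quantile-normalized between arrays over 52865 probe sets, 158 controls were left out, and 52707 probe sets were tested. By GEO's platform annotation, 24956 carried a single gene symbol, 361 carried more, and 27390 carried none. Each gene was represented by its brightest probe set (highest mean of 6 arrays).

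CET and VEH were compared by limma 3.58.1 in R 4.3.3 (lmFit, eBayes with an intensity trend, no covariates, Benjamini-Hochberg adjustment over all probe sets at 0.05), after a test on simulated data. Differences are means of log2 signal, CET minus VEH, and their standard errors are those of limma. Precision was limited by having 3 arrays per group, where the median SD between replicates was 0.846. The p-values set the difference between groups against the spread between these samples. The samples were treated as independent, although the series states that the same monkeys gave both groups.

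The 8 genes, the 10 pathway lists, the 8 lists of cell type markers and the alternatives were chosen with earlier results of these data known. Besides the 8 genes, the text names 20 genes by a list, the 2 measured genes with the smallest p of each pathway list and the 3 genes nearest to CDH5. PGF, the remaining measured gene of the VEGF list, is named as well, and EMCN was named after its values were seen. Alternatives were the deposited signals, array medians subtracted, adding a pseudocount of 16, raising the floor to the 20th percentile, no intensity trend, array weights, the mean log2 3' to 5' ratio as a covariate, the mean over probe sets, the filter on dim probe sets, the methods' t-test and leaving out each replicate.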

Additional observations from a re-analysis of the deposited data

How the results depend on the processing

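No paired analysis was possible because the labels number the samples 1 to 6 and the groups share no replicate number. The 8 genes kept the direction of their brightest probe sets under every alternative except that, on leaving out 1 replicate at a time, ERG lay between -1.81 and 0.079 (positive without CET replicate 3) and MMRN2 between -0.020 and 1.84 (negative without VEH replicate 4), and the mean over all probe sets reduced KLF2 to 0.32 and THBS1 to 0.26. An adjusted p of 0.05 was reached by 0 probe sets in every limma setting and in the methods' t-test. The 2840 probe sets at an unadjusted p under 0.05 became 5086 with array weights, 1756 without dim probe sets and 1696 (without VEH replicate 5) to 6997 (without CET replicate 1) on leaving out 1 replicate.

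Leaving out single replicates, where CET replicate 3 gave the fewest lower genes and the highest median, the endothelial identity list had 5 to 12 lower genes and a median of -0.59 to 0.086, the VEGF list 1 to 3 and -0.32 to 0.61, the flow list 4 to 7 and -0.22 to 0.024, and the junction list 3 to 6 and -0.45 to 0.041. The angiopoietin median ranged from -0.52 to 0.015, positive without VEH replicate 4. The VEGF median was 0.057 with dim genes included, and adjusting for the 3' to 5' ratio made the NOTCH median 0.036 and the hypoxia median 0.061.

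Over single genes, leaving out replicates gave KDR -1.23 to 1.02, FLT1 -0.68 to 0.62, TIE1 -0.59 to 0.086, PECAM1 -0.55 to 0.37, VWF -1.64 to 0.85, NOS3 -0.37 to 0.16, THBS2 -0.47 to 0.55, VEGFB -0.94 to 0.64 and CLDN5 -1.45 to 0.041. The mean over all probe sets turned the sign of FLT1 to 0.77, ARNT to 0.12, NOS3 to 0.42, NOTCH4 to 0.46, FLI1 to -0.56 and ANGPTL2 to 0.39. Array weights gave KDR -0.55, FLT1 0.046, NOS3 0.095 and THBS2 -0.21. KDR was -0.22 with a pseudocount of 16 and -0.35 with the floor at the 20th percentile, NOS3 was 0.14 in the signals as deposited, and THBS2 was -0.047 with array medians subtracted and -0.23 after adjusting for the 3' to 5' ratio. The cause of these changes was not tested. Scaling moved the median difference of all probe sets from 0.0025 to 0.17 in the signals as deposited, and that of measured genes from -0.13 to -0.30 with array medians subtracted. With 3 arrays a group, an exact permutation test of 1 gene cannot give a p below 0.1.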

Other observations

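Markers of other cell types, read at the brightest probe set of each gene, are given as summed linear signal, which the genes with the strongest signal dominate. Pericyte and smooth muscle markers, with 7 of 8 measured, summed to 8491 on CET replicate 3 and to 12388 to 13823 on the 5 other arrays. The fibroblast sum was 16617 to 35567 after CET and 24983 to 34867 after vehicle. Of 6 fibroblast markers, 3 had a lower mean after CET, and the median difference was -0.075. COL1A1, a fibroblast collagen and 1 of those lower, had a mean log2 signal of 9.03 after CET and 11.66 after vehicle. Lymphatic endothelial markers summed to 4375 to 11104 after CET and to 4899 to 6691 after vehicle, with PROX1 at a difference of 0.99 and LYVE1 at -0.99. Leukocyte markers summed to 5823 to 11145 and to 4531 to 11182. Erythroid and platelet markers summed to 1920 to 5247 and to 2020 to 3847. Epithelial markers summed to 869 to 2303 and to 2129 to 2759, with EPCAM and CDH1 below the limit for dim probe sets. Every one of these ranges overlapped between the groups. COL1A1, PROX1, LYVE1, EPCAM and CDH1 were chosen after their values were seen.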
